A study of Homo sapiens with 8 samples.

Results

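Wide domains of histone H3 acetylated at lysine 27 (H3K27ac) that were present with and without ARID1A are described here in MDA-MB-231, an established human cell line of triple-negative breast cancer. Peaks of the control list and of the ARID1A knockout list on chromosomes 1 to 22 and X were merged where they shared at least 1 bp, and a merged region was taken as a domain if it was wider than 10 kb and held at least 1 peak of each list. Of 48662 merged regions, 31981 were shared by both lists and 794 of these met the width rule. The domains were chosen by the widths of the same peaks as the values below, so widths, covered lengths and peak numbers are given as a description and without a test.

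The study had 8 ChIP-seq libraries in 4 groups of 2: input and immunoprecipitate of control cells, and input and immunoprecipitate of ARID1A knockout cells, all of the same cell line. Each genotype had a single peak list, so every value is 1 value per genotype with no replicate error. The labels did not say whether the knockout cells were clonal or pooled, how ARID1A was disrupted, or whether the libraries came from separate cultures. They were also at odds on the antibody, since the sample characteristics named an antibody to H3K27ac and the extraction protocol one to H3K4me3, and the mark is called H3K27ac after the former.

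H3K27ac marks active promoters and enhancers. Long stretches in which many enhancers lie close together, often called super-enhancers or stretch enhancers, are known for marking genes of cell identity and oncogenes, and broad acetylation also extends from the starts of highly transcribed genes into their bodies. ARID1A, a subunit with DNA-binding activity, belongs to the BAF form of the SWI/SNF chromatin remodelling complexes, a form known to act at enhancers and to recruit the acetyltransferase p300 to them.

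Several of the widest domains held microRNA genes in place of protein-coding genes. Mature microRNAs of well-known microRNA genes are printed here to show which families they belong to. They were chosen after their values had been seen, from domains of any width, with or without a protein-coding gene. The domain with MIR21 also touched VMP1 and TUBD1, and that with MIR15B and MIR16-2 touched IFT80 and SMC4. The sequences are those of RefSeq (GRCh38.p14), written from 5′ to 3′, with the seed, bases 2 to 8, in capitals. miR-221-3p (chrX:45746180-45746202, minus strand) and miR-222-3p (chrX:45747036-45747056, minus strand) shared the seed GCUACAU. miR-15b-5p (chr3:160404607-160404628, plus strand), miR-16-5p (chr3:160404754-160404775, plus strand) and miR-424-5p (chrX:134546680-134546701, minus strand) shared the seed AGCAGCA. The others lay at chr17:59841273-59841294 on the plus strand for miR-21-5p, and on the minus strand at chr6:71403595-71403616 for miR-30a-5p, chr11:122152275-122152296 for miR-100-5p, chr11:122146568-122146589 for let-7a-5p, chr19:13836595-13836615 for miR-23a-3p, chr19:13836447-13836467 for miR-27a-3p and chr19:13836289-13836310 for miR-24-3p.
hsa-miR-221-3p: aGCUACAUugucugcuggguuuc
hsa-miR-222-3p: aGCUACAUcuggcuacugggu
hsa-miR-15b-5p: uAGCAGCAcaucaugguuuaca
hsa-miR-16-5p: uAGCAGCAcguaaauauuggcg
hsa-miR-424-5p: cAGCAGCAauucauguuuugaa
hsa-miR-21-5p: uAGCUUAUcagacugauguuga
hsa-miR-30a-5p: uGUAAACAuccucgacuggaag
hsa-miR-100-5p: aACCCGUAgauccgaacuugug
hsa-let-7a-5p: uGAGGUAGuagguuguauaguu
hsa-miR-23a-3p: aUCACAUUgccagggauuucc
hsa-miR-27a-3p: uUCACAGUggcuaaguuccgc
hsa-miR-24-3p: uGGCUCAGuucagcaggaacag

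Promoter windows are shown for 3 domains: SMAD3, whose domain was the widest, SMURF2, whose domain had the largest excess of sequence under control peaks, and B4GALT5, whose domain had the largest excess of sequence under knockout peaks among those with a known start inside. Each window runs from 250 bases before to 50 bases after a RefSeq start, on GRCh38.p14. The outer SMAD3 window (chr15:67065352-67065651, plus strand) held 5 matches to GGGCGG, the core recognised by SP and KLF factors. A window at a start inside SMAD3 (chr15:67125492-67125791, plus strand) held 1 match to the AP-1 site TGACTCA. The SMURF2 window (chr17:64662258-64662557, minus strand) held 5 SP/KLF matches, of which a pair overlapped. The B4GALT5 window (chr20:49713829-49714128, minus strand) held 3 SP/KLF matches and 1 match to GGAATG, the core of TEAD factors. Capitals mark these matches, on either strand, and all 4 starts lay under a peak of both lists.
SMAD3, outer start: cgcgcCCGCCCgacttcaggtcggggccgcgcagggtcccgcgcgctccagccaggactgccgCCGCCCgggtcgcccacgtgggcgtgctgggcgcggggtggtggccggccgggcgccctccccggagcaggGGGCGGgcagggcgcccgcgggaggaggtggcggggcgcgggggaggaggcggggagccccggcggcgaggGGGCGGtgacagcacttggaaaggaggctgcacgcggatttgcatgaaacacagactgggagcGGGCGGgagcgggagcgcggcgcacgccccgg
SMAD3, internal start: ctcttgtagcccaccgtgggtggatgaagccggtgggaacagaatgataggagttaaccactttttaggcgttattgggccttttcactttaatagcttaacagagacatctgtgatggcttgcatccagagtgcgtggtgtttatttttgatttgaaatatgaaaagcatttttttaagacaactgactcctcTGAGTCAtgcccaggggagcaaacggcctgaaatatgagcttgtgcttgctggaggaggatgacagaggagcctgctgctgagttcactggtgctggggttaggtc
SMURF2: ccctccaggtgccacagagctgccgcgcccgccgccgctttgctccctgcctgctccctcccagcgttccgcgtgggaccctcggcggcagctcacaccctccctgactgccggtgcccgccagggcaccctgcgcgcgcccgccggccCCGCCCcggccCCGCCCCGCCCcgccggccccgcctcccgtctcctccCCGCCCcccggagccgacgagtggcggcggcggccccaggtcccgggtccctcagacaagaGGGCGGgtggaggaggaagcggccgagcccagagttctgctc
B4GALT5: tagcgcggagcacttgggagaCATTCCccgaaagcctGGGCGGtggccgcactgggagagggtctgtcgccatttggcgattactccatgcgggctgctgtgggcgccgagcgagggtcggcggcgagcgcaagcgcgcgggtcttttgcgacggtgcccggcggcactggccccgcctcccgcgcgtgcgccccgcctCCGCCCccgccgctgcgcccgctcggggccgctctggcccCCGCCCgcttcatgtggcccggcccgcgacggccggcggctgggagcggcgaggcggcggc

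The domains covered 12.3 Mb in all, with a median width of 12.8 kb and quartiles of 11.2 and 16.8 kb. Control peaks covered 11.2 Mb of this in 1001 peaks and knockout peaks 10.6 Mb in 1230 peaks, so the knockout list had 0.942 times the covered sequence and 1.23 times the peaks. Over all 31981 shared regions the ratios were 0.995 for covered sequence and 1.01 for peaks. Domains held 2.52% of the control peaks but 12.9% of the sequence under them, and 2.89% of the knockout peaks and 11.8% of the sequence under them. Sequence under peaks of both lists at once came to 9.48 Mb, which was 84.3% of the control sequence and 89.6% of the knockout sequence in the domains.

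Control peaks covered more sequence than knockout peaks in 481 domains, 60.6% (57.1 to 64.0, exact Clopper-Pearson 95% interval, counting error only), against a background of 49.3% of all shared regions. Knockout peaks covered more in 313 domains, 39.4%, against a background of 50.6%. The median difference was 0.731 kb in favour of control, and the difference was modest in most domains. In 613 of them (77.2%) neither list covered 1.5 times as much as the other. Control peaks covered at least 1.5 times as much in 110 domains, 13.9% against a background of 13.7%, and knockout peaks in 71 domains, 8.94% against a background of 15.7%. Direction depended on which list set the width: among regions where control peaks alone covered over 10 kb, 72.8% had more control sequence and the ratio of knockout to control was 0.872, whereas among those where knockout peaks alone covered over 10 kb, 46.9% did and the ratio was 1.01. Where more than 10 kb was covered by both lists at once, 61.2% of 433 regions had more control sequence.

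**Figure D1:**
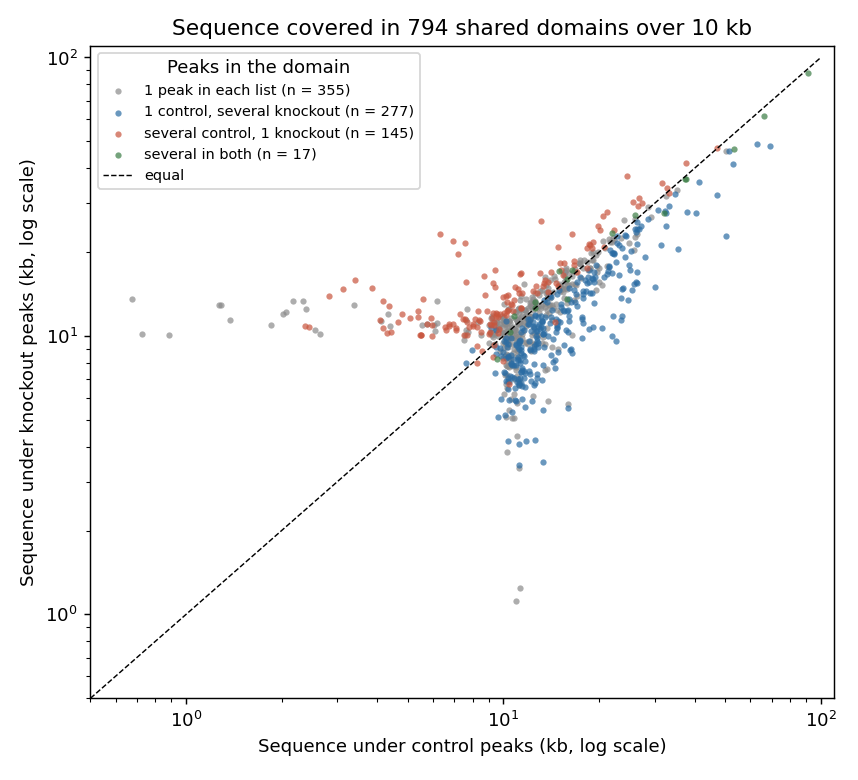
Sequence under control peaks (x axis, kb, log scale) and under knockout peaks (y axis, kb, log scale) in each of the 794 domains, coloured by the number of peaks in each list, with equality as a dashed line. Domains with 1 control peak and several knockout peaks (n = 277) lie mostly below the line, those with several control peaks and 1 knockout peak (n = 145) mostly above it, and those with 1 peak in each (n = 355) mostly along it.

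The share of domains with more control sequence grew with their width. Among domains of 10 to 12 kb, 57.1% (n = 317) had more control sequence, and the share was 58.2% from 12 to 15 kb (n = 208), 63.6% from 15 to 20 kb (n = 143) and 67.8% from 20 to 30 kb (n = 90). Over 30 kb it was 75.0% (57.8 to 87.9, n = 36), and those 36 domains held 58 control and 103 knockout peaks. The intervals of neighbouring classes overlapped. From the narrowest class to the widest, the ratio of covered sequence, knockout over control, was 0.970, 0.978, 0.939, 0.897 and 0.888. Just below the threshold, shared regions of over 5 and up to 10 kb had more control sequence in 53.7% of 3241.

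A domain was more often a single peak in control and a row of peaks in knockout than the reverse. More knockout than control peaks were found in 285 domains, 35.9% (32.6 to 39.3), against a background of 2.73% of shared regions, and more control peaks in 146, 18.4% (15.8 to 21.3), against a background of 1.83%. Since a wide region has room for several peaks, both shares were high by construction of the set. A further 363 had the same number, among them the 355 with 1 peak in each list, 44.7% against a background of 95.4%. In those 355 the lists were nearly equal, with 4433 kb under control and 4388 kb under knockout peaks and a median difference of 0.129 kb. In the 277 domains with 1 control peak and several knockout peaks, control peaks covered 4654 kb and the 681 knockout peaks 3491 kb, and control covered more in 271. In the 145 domains with several control peaks and 1 knockout peak, the 334 control peaks covered 1673 kb and knockout peaks 2242 kb, and knockout covered more in 136. By the merging, every gap between peaks of 1 list lies under the other list, so both directions largely follow from the class.

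The sequence under 1 list alone lay partly between the peaks of the other list and partly beyond them. Over all domains, 954 kb was under control peaks in the gaps between knockout peaks and 807 kb under control peaks past the outer knockout peaks. The corresponding values for knockout alone were 429 kb between control peaks and 675 kb beyond them. The values between peaks are the summed gaps of the other list, since the merging leaves no base of a domain uncovered. The knockout list had 436 gaps in 294 domains, with a median of 1674 bp and a maximum of 11394 bp. The control list had 207 gaps in 162 domains, with a median of 1666 bp and a maximum of 9387 bp. Gaps of over 3 kb numbered 82 in knockout and 35 in control. The smallest gap in the whole list was 997 bp for control and 904 bp for knockout, and the distance over which the caller joined peaks is not given in the sources used here. With gaps under 997 bp closed in both lists, an alternative chosen after seeing the data, the ratio of knockout to control was 1.16 for peaks and 0.953 for covered sequence.

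**Figure D2:**
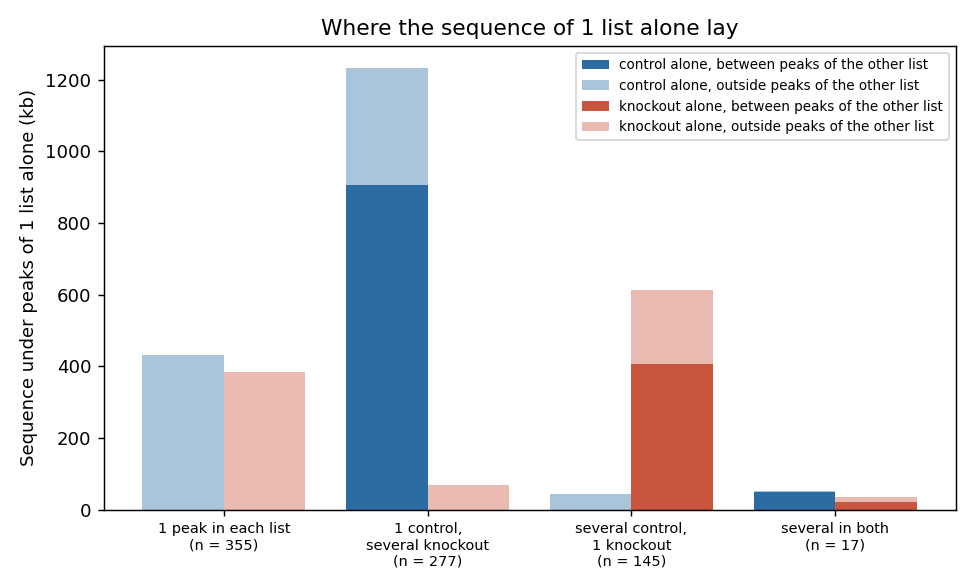
Sequence under peaks of 1 list alone (y axis, kb), summed over domains of each class of peak number (x axis), split into sequence between the peaks of the other list (dark) and outside them (pale). Domains with 1 control and several knockout peaks had 905 kb of control sequence between knockout peaks, and domains with several control and 1 knockout peak had 407 kb of knockout sequence between control peaks. By the merging, the dark parts equal the summed gaps of the other list.

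The widest domain (95.4 kb, chr15:67063686-67159109) lay over SMAD3, the transcription factor activated by TGF-beta and activin receptors. It held 2 control peaks of 14.6 and 76.2 kb and 6 knockout peaks of 2.62 to 30.9 kb. Although control was less divided, the covered lengths were close, at 90.8 kb in control and 88.3 kb in knockout. The domain over MYH9 (68.6 kb, chr22:36321103-36389737), which encodes the heavy chain of non-muscle myosin IIA, had the same pattern, with 2 control peaks covering 66.4 kb and 6 knockout peaks covering 61.5 kb. Over ACTN4 (54.5 kb), which encodes the actin crosslinker alpha-actinin-4, 2 control peaks covered 53.4 kb and 3 knockout peaks 46.8 kb. TRIO (52.0 kb), an exchange factor for small GTPases, had 1 control peak covering 51.4 kb and 4 knockout peaks covering 46.2 kb. UGCG (50.3 kb), glucosylceramide synthase, had 1 peak in each list, of 50.3 kb in control and 46.1 kb in knockout.

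Among the widest domains, those of BCL2L1, SMURF2, PHLDB2 and PVT1 differed most in covered length. At BCL2L1 (63.4 kb, chr20:31661189-31724627), which encodes the survival protein BCL-XL, a control peak of 63.1 kb stood against 6 knockout peaks covering 48.8 kb, of which the one over the gene's starts was 32.7 kb wide. Knockout peaks of 1.55, 0.313 and 0.968 kb in this domain ranked at percentiles 1.19, 0.336 and 0.188 of their list by fold enrichment. The others ranked at 51.1, 63.9 and 91.8. At SMURF2 (50.2 kb, chr17:64615980-64666198), a ubiquitin ligase that restrains TGF-beta signalling, the control peak of 50.2 kb stood against knockout peaks of 3.72, 1.91 and 17.2 kb, 22.9 kb in all, and the widest of these covered the start. This difference of 27.3 kb was the largest of all domains. The domain in the long non-coding gene PVT1 (69.3 kb, chr8:127883300-127952612) had 1 control peak of 69.3 kb and 8 knockout peaks covering 47.9 kb. Its knockout peaks of 3.16, 1.89, 0.281 and 0.441 kb ranked at percentiles 7.07, 11.2, 1.09 and 5.35. The others ranked between 53.0 and 69.2. The domain in PHLDB2 (47.1 kb), a cortical scaffold protein of adhesion sites, had 1 control peak of 47.1 kb and 5 knockout peaks covering 32.2 kb. Another wide domain without a protein-coding gene (52.8 kb, chr7:130877492-130930257), whose lower edge cut the MIR29B1 hairpin, had 1 control peak of 52.8 kb and 4 knockout peaks covering 41.5 kb.

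Further large differences in favour of control were seen at CAPN2, the catalytic subunit of the protease m-calpain (35.5 kb in control, 20.5 kb in knockout), at the collagen gene COL8A1 (29.96 and 15.05 kb), at MAFF, a small MAF transcription factor (22.6 and 9.60 kb), and at SHB, an SH2 domain adaptor (40.4 and 27.6 kb). All 8 domains with the largest difference had 1 control peak and 3 or more knockout peaks. At MAFF the knockout peaks of 3.29 and 5.36 kb at the sides of the domain ranked at percentiles 97.7 and 91.9 of their list by fold enrichment, and the 2 between them were 0.614 and 0.336 kb wide.

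In the other direction, knockout peaks joined stretches that control peaks left apart. At MTHFD2L, a mitochondrial enzyme of folate metabolism (chr4:74214539-74237703), 5 control peaks covered 6.32 kb and 1 knockout peak 23.2 kb. At NRP1 (chr10:33247088-33268591), neuropilin 1, a co-receptor for semaphorins and VEGF, 4 control peaks covered 7.56 kb and 1 knockout peak 21.5 kb. At B4GALT5 (chr20:49688738-49714740), a galactosyltransferase of glycosphingolipid synthesis, 5 control peaks covered 13.1 kb and 1 knockout peak 25.9 kb, and the control peak of 2.81 kb that held the start ranked at percentile 98.3 of its list. Around MIR30A (chr6:71383807-71421832), 5 control peaks covered 24.5 kb and 1 knockout peak 37.5 kb. In FMN2, an actin nucleator, a control peak of 0.674 kb at percentile 13.5 of its list lay within a domain of 13.6 kb under 1 knockout peak. The remaining 3 of the 8 touched no protein-coding gene, at chr10:2204459-2226322 (6.96 kb in control, 21.9 kb in knockout), chr5:115926688-115942617 (3.41 and 15.9 kb) and chr6:43999937-44019591 (7.20 and 19.7 kb).

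**Figure D3:**
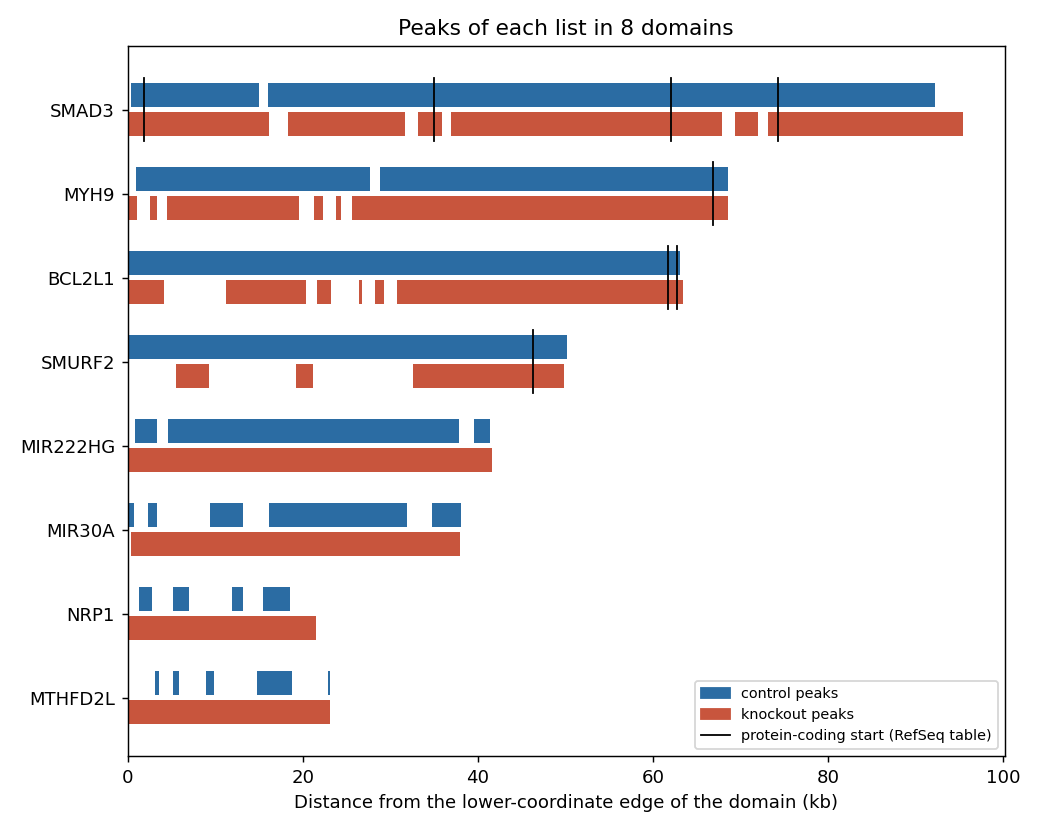
Peaks of the control list (upper bars) and of the knockout list (lower bars) in 8 domains, by distance from the lower-coordinate edge (x axis, kb), with protein-coding starts of the RefSeq table as vertical lines. SMURF2 has 1 control and 3 knockout peaks, whereas MTHFD2L, NRP1 and MIR30A have 4 or 5 control peaks and 1 knockout peak; the 8 were picked after their values had been seen.

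Some wide domains had the same extent in both genotypes. In 57 domains with 1 peak in each list the covered lengths differed by less than 2% of the width. The widest of these (29.0 kb, chr1:218472880-218501916; 28.6 kb in control and 29.0 kb in knockout) lay 28.3 kb from TGFB2, a ligand of the TGF-beta family. Next came MYOF, a membrane repair protein of the ferlin family (26.0 and 26.2 kb), SBNO2, a transcriptional co-regulator (22.03 and 21.75 kb), GNG7, a G protein gamma subunit (22.2 and 22.4 kb), chr1:59135851-59158208 (22.3 and 22.2 kb), and NT5E, the ectonucleotidase CD73 (21.7 and 21.8 kb).

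At the threshold the rule divided like from like. The 5 narrowest domains were 10043, 10041, 10012, 10009 and 10007 bp wide, the last touching ITGBL1 and the one before it ADAM17, the sheddase of TNF and EGF family ligands. The widest shared regions left out were 9999 bp in FHAD1, 9998 bp at PTPN1, 9993 bp on chromosome X, 9989 bp in EXT1 and 9977 bp at REV3L. No control-only region was wider than 10 kb, and 7 knockout-only regions were. The widest were 21.3 kb in FMN2, 16.0 kb on chromosome 19 touching no protein-coding gene, and 14.4 kb in TCF4.

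Domains lay at strong peaks of either list. The authors' fold enrichment sets each peak against the background from its own input, and it is used only within a list. The strongest peak of a domain lay at a median percentile of 85.0 of the control list and 84.5 of the knockout list, and in the upper 10% of the list for 276 and 265 domains. It lay in the lower 50% for 29 domains in control and 13 in knockout. Shared regions of over 5 and up to 10 kb were close to this, at median percentiles of 80.5 and 81.4, whereas all shared regions stood at 59.2 and 61.4. A domain with several peaks has more to take the strongest from. In the 355 domains with 1 peak in each list the median percentiles were 87.1 in control and 85.6 in knockout. In control the highest folds were those of domains at LOC124900275 (34.1), on chromosome 5 at 173449245 to 173460114 (32.0), at UQCC1 (30.02), at FMNL1, an actin-nucleating formin (29.1), at BCL9L, a Wnt co-activator (28.1), and in VMP1, an autophagy protein (27.3). In knockout they were those of ZBTB7A, a transcriptional repressor (41.4), FMNL1 (41.0), MRPL24 and HDGF (38.6), TNRC18 (37.1), the profilin gene PFN1 with 3 neighbours (36.2), and AJUBA, a LIM protein of adhesion sites and Hippo signalling (36.0). The median pileup over the whole list was 22.7 in control and 32.0 in knockout and the median −log10 q 10.57 and 14.97, so the lists differed as a whole, and the part of this in the widths was not tested.

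Where a domain lay relative to genes went with its direction. Of the 794, 461 (58.1%) reached within 1 kb of an end or start of a protein-coding gene, against a background of 37.9% of shared regions, a comparison in which wide regions reach more gene ends by their length. The share was 51.1% in shared regions of over 5 and up to 10 kb. Of these 461, 324 had more control sequence, 70.3% (65.9 to 74.4), with 545 control and 769 knockout peaks and a ratio of covered sequence, knockout over control, of 0.887. Of the 187 domains inside a gene and away from its ends, 55.6% (48.2 to 62.9) had more control sequence and the ratio was 0.972. Of the 146 with no protein-coding gene within 1 kb, 36.3% (28.5 to 44.7) did, with 208 control and 193 knockout peaks and a ratio of 1.11. The same order was seen in narrower shared regions: 65.8%, 46.1% and 33.9% for those of over 5 and up to 10 kb, and 55.4%, 47.6% and 41.7% for those of 5 kb or less.

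**Figure D4:**
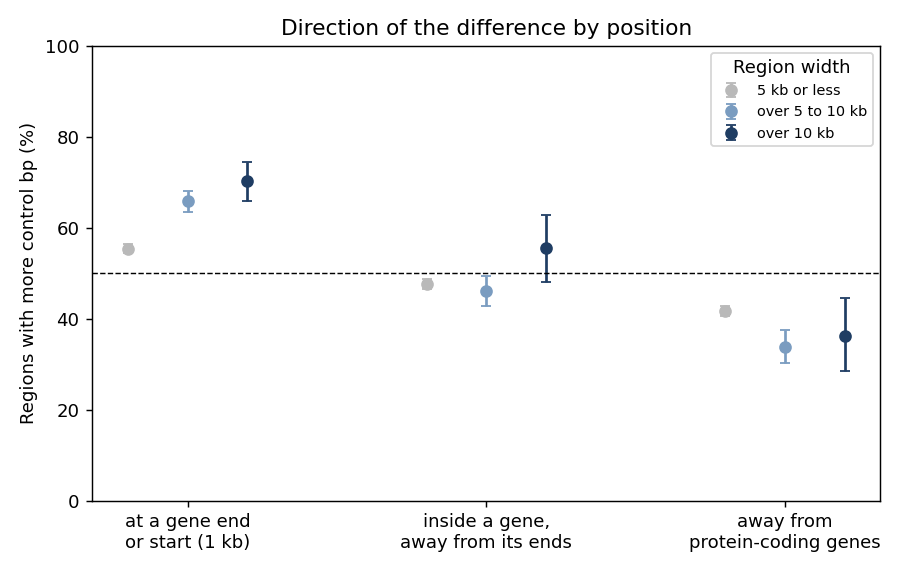
Share of shared regions with more sequence under control than under knockout peaks (y axis, percent; bars are exact 95% intervals, counting error only) by position relative to protein-coding genes (x axis) and by width. Domains over 10 kb stand at 70.3%, 55.6% and 36.3%, and both narrower classes fall in the same order across the 3 positions.

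Direction is given by chromosome beside the 60.6% of all domains with more control sequence. More than 50% of the domains had more control sequence on 14 of 23 chromosomes, 50% on chromosomes 15 and X, and fewer on 7. The highest shares were 15 of 16 on chromosome 22 and 30 of 37 on each of chromosomes 9 and 19. Over all shared regions of those chromosomes the shares were 59.4%, 54.95% and 54.6%. The lowest were 1 of 4 on chromosome 21, 10 of 36 on chromosome 6 (27.8%, 14.2 to 45.2, with a ratio of 1.13) and 5 of 13 on chromosome 13, beside 46.4%, 43.98% and 43.9% of all their shared regions. Chromosomes 14 (11 of 27), 18 (5 of 12), 10 (24 of 50) and 4 (15 of 31) also stood under 50%.

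Starts of protein-coding genes lay inside 367 domains, 46.2% against a background of 28.5% of shared regions. In this comparison too, wide regions reach more starts by their length. The 367 domains held 632 starts of 435 genes. Nearly all of these starts lay under peaks of both lists: 615 of 632, with 11 under control peaks alone and 6 under knockout peaks alone. Gaps between knockout peaks held starts of MICAL2, an actin-oxidising enzyme, ANGPTL4, a lipoprotein lipase inhibitor, CELF2, SIPA1 and STPG1, and gaps between control peaks held those of ABCC2, a drug efflux transporter, and ITGBL1. In the 222 domains with 1 start, control peaks covered more sequence downstream than upstream of it in 168, and knockout peaks in 161. Control peaks covered a median of 3.04 kb upstream and 9.32 kb downstream of the start, and knockout peaks 2.91 and 8.28 kb. These are lengths under peaks, without the gaps between them, and do not give how far peaks reached. Neither these lengths nor the cover of starts by both lists was computed for narrower shared regions. Neither is therefore shown to be particular to wide domains. The domain with starts of the most genes held 6 histone genes of chromosome 6 (H2BC13, H2AC13, H3C10, H2AC14, H2BC14 and H4C11) under 3 control peaks covering 14.9 kb and 1 knockout peak covering 20.9 kb.

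The domains touched 725 of 19974 protein-coding genes (3.63%) and 1178 of 59098 RefSeq genes of any kind (1.99%). Of the 794, 524 touched 1 protein-coding gene, 118 touched more and 152 touched none. Touched genes were long, with a median of 38.6 kb against 24.2 kb for all protein-coding genes, as longer genes offer more sequence to touch. Of the 152 without a gene, 88 lay in a long non-coding RNA gene. Their median distance to the nearest protein-coding gene was 57.8 kb, 52 lay more than 100 kb away, and the farthest was a domain 977 kb from CDH2, the N-cadherin gene, with 13.1 kb under control and 10.6 kb under knockout peaks.

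Some domains lay close to others. Another domain lay within 50 kb of 223 of them (28.1%), in 95 groups, of which 24 had 3 or more members. This share was not computed for narrower shared regions, so grouping is not shown to be particular to wide domains. Some members of a group were split only by a short gap, as at ETS1 (chr11:128455548-128472816 and chr11:128473751-128485161). The largest group had 5 domains over MYC and PVT1, where 5 control peaks covered 152 kb and 13 knockout peaks 107 kb. DNMBP, a scaffold and exchange factor for CDC42, PHLDB2 and VMP1 were each touched by 4 domains. Those in DNMBP had 68.7 kb under 4 control peaks and 34.4 kb under 9 knockout peaks, and those in PHLDB2 had 84.8 kb under 5 control peaks and 62.4 kb under 9 knockout peaks. In VMP1, whose last domain holds MIR21, the order was the opposite, with 73.6 kb under 6 control peaks and 77.4 kb under 4 knockout peaks. Of the groups of 3, 9 lay on 1 and the same protein-coding gene. Control covered more in 6 of these, at TRIO (86.7 kb in control and 76.5 kb in knockout), SHB (75.9 and 49.6 kb), ETS1 (65.4 and 57.7 kb), NIBAN2 (56.7 and 38.9 kb), CAPN2 (56.7 and 39.1 kb) and ZMYND8 (42.4 and 34.1 kb). Knockout covered more in the other 3, at MYOF (45.4 and 51.1 kb), NRP1 (17.1 and 44.9 kb) and FRMD6 (33.9 and 39.6 kb). A further 29 genes each held a group of 2.

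Gene lists are described by the number of members touched, beside 3.63% of all protein-coding genes, and the lists were chosen with earlier results of these data known. Their directions stand beside the 60.6% of all domains, and 70.3% of those at a gene end or start, that had more control sequence. The 3.63% counts genes with and without a shared region. Shared regions of any width touched 22 of 22 YAP, TEAD and target genes and 16 of 16 RAS-MAPK feedback inhibitors. Among YAP, TEAD and target genes, 11 of 22 were touched, by 13 domains of which 7 had more control and 6 more knockout sequence. They included CRIM1, with 3 domains of 30.7, 20.7 and 18.1 kb, AMOTL2, an inhibitor of YAP (20.6 kb in control, 21.9 kb in knockout), the tissue factor gene F3 (17.9 and 14.5 kb), the matricellular gene CCN1 (16.0 and 11.3 kb), TEAD1 (12.3 and 5.84 kb) and YAP1 (12.4 and 13.5 kb). Of the RAS-MAPK feedback inhibitors, 8 of 16 were touched, with 4 domains in each direction. In this list control covered more at PHLDA1 (22.3 and 19.9 kb), SPRY4 (12.4 and 10.6 kb) and the phosphatase genes DUSP5 (11.0 and 8.89 kb) and DUSP6 (10.20 and 10.04 kb). Knockout covered more at ERRFI1, an inhibitor of EGFR (16.7 and 17.1 kb), IER3 (13.4 and 15.5 kb), DUSP1 (11.2 and 14.3 kb) and DUSP4 (9.99 and 13.8 kb).

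Genes of the actin cytoskeleton and focal adhesions were touched in 11 of 28 cases by 12 domains, of which 10 had more control sequence. In all, 286 kb lay under control and 241 kb under knockout peaks. After MYH9 and ACTN4 the widest were at PXN, the adhesion scaffold paxillin (38.001 kb in control, 27.9 kb in knockout), and ACTN1 (25.8 and 20.4 kb). ARPC2, a subunit of the Arp2/3 complex, had 16.2 and 8.88 kb. The exceptions were TNS4 (6.54 and 10.7 kb) and LPP (13.8 and 14.9 kb). Integrins and their ligands were touched in 6 of 20 cases, with 3 domains in each direction. The widest were at ITGA3 (27.1 and 24.7 kb), LAMA5 (21.5 and 17.7 kb) and LAMB3 (18.6 and 15.6 kb), and ITGB1, the common beta chain, had 10.3 and 10.5 kb.

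Of the TGF-beta and SMAD pathway, 8 of 25 genes were touched, by 10 domains of which 7 had more control sequence. Besides SMAD3 and SMURF2 these included TGFB2 itself (11.6 kb in control, 15.3 kb in knockout). LTBP2, a latent TGF-beta binding protein, had 2 domains with more knockout sequence, of 6.93 and 11.0 kb and of 7.53 and 10.1 kb. Growth factor receptors and ligands were touched in 7 of 20 cases, 5 with more control sequence: EPHA2 (26.3 and 24.1 kb), LIF (24.23 and 23.02 kb), EGFR (19.6 and 18.0 kb), the receptor kinase AXL (15.9 and 13.2 kb) and HBEGF (12.8 and 10.1 kb). EREG (11.1 and 14.7 kb) and NRG1 (4.402 and 10.9 kb), both ligands of the EGFR family, had more knockout sequence. Hypoxia and glycolysis genes were touched in 6 of 19 cases, by 7 domains. The hypoxia factor HIF1A had domains of 38.8 and 34.2 kb with nearly equal coverage (37.6 and 36.5 kb, 33.2 and 32.7 kb). The narrower of these held no start of HIF1A but that of SNAPC1. The domain of the glucose transporter gene SLC2A1 (32.8 and 34.0 kb) was the only one of the 7 with more knockout sequence.

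**Figure D5:**
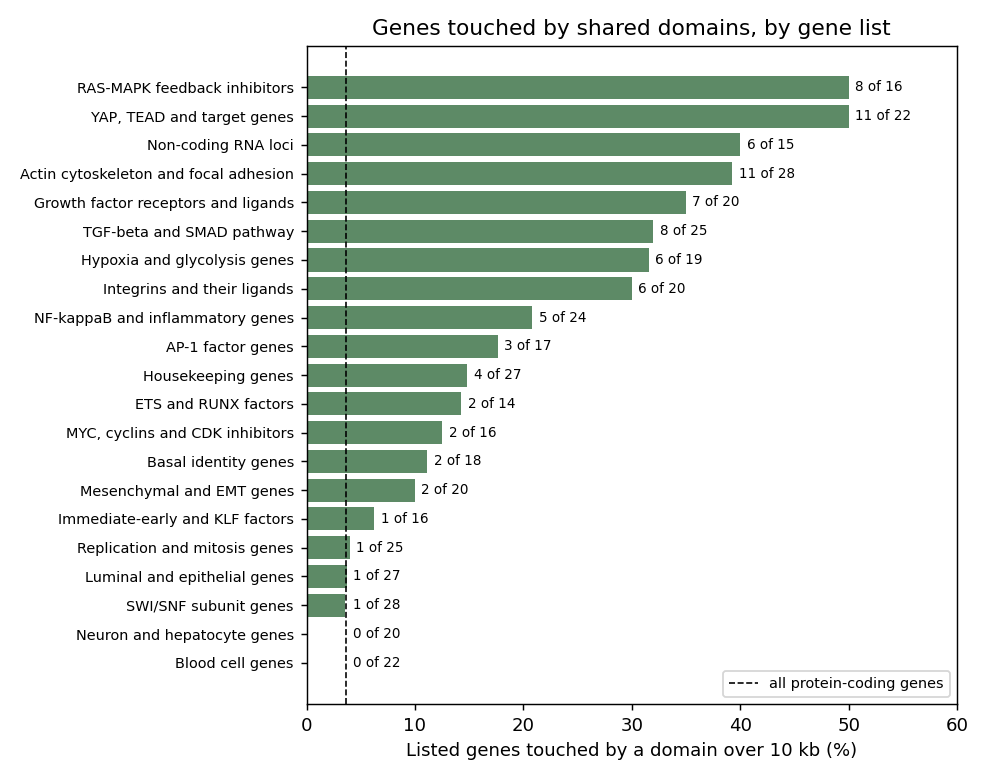
Share of the genes of each list that a domain touched (x axis, percent; the number touched of the number in the RefSeq table stands beside each bar), with the 3.63% of all protein-coding genes as a dashed line. RAS-MAPK feedback inhibitors (8 of 16) and YAP, TEAD and target genes (11 of 22) stand highest, and blood cell and neuron and hepatocyte genes have none.

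Transcription factor genes had wide domains in a few cases. Of 17 AP-1 genes 3 were touched, each with more control sequence, as had 70.3% of domains at a gene end or start: FOSL1 (35.2 kb in control, 33.4 kb in knockout), FOSL2 (21.9 and 16.8 kb) and MAFF. ETS1 had 3 domains, the widest with 37.3 and 36.7 kb, and RUNX1 had 2, with 15.8 and 14.7 kb and with 14.9 and 15.3 kb, out of 14 ETS and RUNX factors. KLF6 (12.1 and 13.1 kb) was the only one of 16 immediate-early and KLF factors, and MYC (10.8 and 10.4 kb) and CDKN1B, the CDK inhibitor p27 (17.0 and 13.9 kb), were touched out of 16 MYC, cyclin and CDK inhibitor genes. The NF-kappaB and inflammatory list had 5 of 24 touched, the widest at TNIP1 (21.7 and 20.4 kb), with the cytokine genes IL6 (7.70 and 11.2 kb) and IL1B (9.40 and 7.34 kb) among them.

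Among cell identity lists, AXL and LOXL2 were touched of 20 mesenchymal genes (10%) and LAMB3 and EGFR of 18 basal genes (11.1%). Both shares stood above the 3.63% of all protein-coding genes but below the 14.8% of housekeeping genes. Shared regions of any width touched 17 of the mesenchymal and 11 of the basal genes. Of 27 luminal and epithelial genes KRT19 alone was touched by a domain (9.86 kb in control, 5.95 kb in knockout), a share close to the 3.63%. None of 22 blood cell genes or 20 neuron and hepatocyte genes was touched, although a narrower shared region touched 8 of each list. Of 27 housekeeping genes 4 were touched, GAPDH (11.3 and 9.63 kb) among them. Of 25 replication and mitosis genes CDC20 alone was touched (12.2 and 8.84 kb), a share of 4%, close to the 3.63%. That domain touched only the end of CDC20 away from its start, and held the start of ELOVL1. ARID1A was the only one of 28 SWI/SNF subunit genes: its domain of 16.3 kb (chr1:26691390-26707680) had 16.0 kb under 1 control peak and 12.4 kb under 2 knockout peaks, which does not check the genotype, since peaks do not show a small deletion.

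Non-coding RNA loci were touched in 6 of 15 cases by 10 domains, and shared regions of any width touched 10 of the 15. Of 18177 long non-coding RNA genes, domains touched 1.74%. That share is not a matched background, since the list also holds the microRNA gene MIR21. The 4 domains in PVT1 had more control sequence, and the 6 others, at NEAT1, MALAT1, MIR21, MIR222HG and MIR100HG with 2, had more knockout sequence. Values were 17.4 kb in control and 18.2 kb in knockout at NEAT1, and 24.0 and 26.1 kb at MALAT1. Of 1558 microRNA hairpins, 48 (3.08%) overlapped a domain, in 41 domains, and 247 overlapped a shared region of any width. Both lists covered 38 of the 48 hairpins, control alone 6 and knockout alone 4.

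The microRNA families printed above differed in their domains. The miR-221 and miR-222 cluster lay in a domain of 41.7 kb with no protein-coding gene within 541 kb, with 3 control peaks covering 37.7 kb and 1 knockout peak covering 41.7 kb. The MIR222 hairpin was under peaks of both lists, and the MIR221 hairpin fell in a gap between control peaks. MIR100 likewise fell in a gap between control peaks of its domain (48.8 kb; 47.1 kb in control and 47.4 kb in knockout), whereas let-7a-2 in the same domain was under both. MIR21, which is often abundant in tumours, lay in a domain of 35.8 kb with 3 control peaks covering 31.7 kb and 1 knockout peak covering 35.3 kb. The MIR23A, MIR27A and MIR24-2 cluster (23.02 kb) had 22.8 kb under 1 control peak and 21.6 kb under 2 knockout peaks. The members of the AGCAGCA seed family lay in separate domains, MIR15B and MIR16-2 in one with 15.03 kb in control and 11.2 kb in knockout, and MIR424 in one with 10.2 and 9.79 kb. All 4 hairpins under knockout alone lay in domains with several control peaks: MIR221, MIR100, MIR8085 in the BCL3 domain and MIR6728 in the ENO1 domain.

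Promoter windows that lay within a domain, 628 windows of 433 genes, were compared with all 22132 windows of the table and with the 11853 windows in shared regions of 10 kb or less. Motifs were counted as exact matches on either strand within the 300 bases. SP/KLF (GGGCGG) was found in 69.3% of domain windows, 56.3% of all windows and 73.2% of windows in narrower shared regions, and ETS (CCGGAA) in 24.5%, 21.2% and 31.0%. AP-1 (TGACTCA) was found in 6.21%, 4.01% and 3.25%, and TEAD (GGAATG) in 14.0%, 12.2% and 10.4%. RUNX (TGTGGT) was found in 9.87%, 11.3% and 8.60%, and the TATA box (TATAAA) in 9.39%, 9.46% and 4.47%. CpG-rich windows, with an observed to expected ratio of at least 0.6, made up 73.2% of domain windows, 62.2% of all windows and 86.6% of windows in narrower shared regions. Starts of the same gene can share sequence, since their windows may overlap, so these shares are a description of the windows.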

How the data were processed

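Input and immunoprecipitate libraries of control and ARID1A knockout cells were represented by 1 peak list per genotype. Per the submitters' processing notes, the tools were Bowtie2 2.3.5.1, an aligner, and MACS2 2.2.6, a peak caller, and the build was hg38. Their options, library depths and any pooling of replicates are not given in the sources used here, so intervals do not include sequencing error. Each row of a deposited list is a peak with position and width. Per the file headers, the authors gave pileup as a coverage signal and fold enrichment as a ratio. The authors gave significance as −log10 of a p-value and of a q-value. Names of peaks began with a letter and number that the labels do not explain, and each list was assigned to its genotype by the genotype in its name.

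The chromosomes used (1 to 22 and X) held 39797 control and 42552 knockout peaks. Merged regions, covered lengths, gaps and overlaps with genes, starts and hairpins were computed with pandas 2.3.3, numpy 2.4.6 and scipy 1.17.1 under Python 3.11.15, and merging was tested on simulated data. Figures were drawn with matplotlib 3.10.9. Coordinates are 1-based on hg38. RefSeq (GRCh38.p14, an assembly with the coordinates of hg38) gave genes, starts and microRNAs: 19974 protein-coding genes, of which the start table held 15812. A gene was touched if the domain overlapped its span by at least 1 bp. Of 431 symbols in 21 gene lists, 429 were found. Some listed genes count in the totals of their list but are not reported here by name.

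Domains and lists were chosen with earlier results of these data known. Named were the 12 widest domains, the 8 with the largest difference in each direction, those with the most peaks or the highest fold, the narrowest, the widest near-equal ones, the widest without a protein-coding gene, genes touched most often and the widest domains of each list. No test was made, since there was 1 list per genotype. Alternatives were stricter peak thresholds, other widths, joining distances and definitions of shared.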

Additional observations from a re-analysis of the deposited data

How the results depend on the processing

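Under 12 alternatives for merging, peaks and width, and 1 other margin, control peaks covered more sequence in most domains except where knockout peaks alone covered over 10 kb, which turned the direction: 46.9% of these had more control sequence, the ratio of sequence (knockout over control) was 1.01, the ratio of peaks 1.10, and 27.9% had more knockout peaks. Where control peaks alone covered over 10 kb, the values were 72.8%, 0.872, 1.43 and 42.7%, and 64.4% lay at a gene end or start. These shifts follow from which list the choice uses.

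Width moved the counts by construction. Over 8 kb there were 1395 domains touching 1241 genes, 28.0% with more knockout peaks and 55.3% with 1 peak in each list. Over 15 kb there were 269 domains touching 258 genes, 66.5% with more control sequence, with ratios of 0.911 for sequence and 1.39 for peaks, 46.5% with more knockout peaks, 31.6% with 1 peak in each and 62.8% at a gene end or start. Over 20 kb there were 126 domains touching 123 genes, with 69.8%, 0.893, 1.57, 57.9%, 19.05% and 63.5% in the same order. With over 10 kb under both lists at once there were 433 domains touching 401 genes, with a sequence ratio of 0.930 and 62.8% at a gene end or start.

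Stricter peak thresholds gave these values. At a minimum −log10 q of 5 the sequence ratio was 0.929, 28.3% had more knockout peaks and 55.1% had 1 peak in each. With a fold of at least 4 the values were 0.923, 25.5% and 59.2%, and the peak ratio was 1.13. With the 35000 strongest peaks of each list they were 0.933, 30.5% and 50.9%. The sequence ratio was 0.924 with 50% of the width under both lists, 0.946 with peaks joined over 1 kb (40.2% with 1 peak in each), and 0.953 with gaps under 997 bp closed, chosen after seeing the data.

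No paired analysis was possible because each genotype had a single peak list (leaving out a replicate was not possible either). Depth was unknown.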
